A study of Homo sapiens with 10 samples.

Results

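Acetylation of histone H3 at lysine 27 (H3K27ac) was compared between Rh30 cells given the ligand dTAG47 for 4 h and cells given DMSO, its solvent. Rh30 is an established human line of alveolar rhabdomyosarcoma, a childhood tumour with skeletal muscle features, and in all groups the cells carried PAX3-FOXO1 joined to an FKBP tag. All 42067 rows of the deposited peak table entered the comparison, which is every peak of the series, and 41791 passed the filter on low counts and were tested. The comparison used 4 of the 8 H3K27ac libraries in the table: 2 from DMSO-treated cells and 2 from cells treated with 500 nM dTAG47 for 4 h. The other libraries, from 2 h and 24 h at the same dose, entered the fit to share the estimate of the spread. The labels give DMSO no time point, so 4 h of treatment and 4 h in culture cannot be told apart. They name no untagged cells given dTAG47, so loss of the tagged protein and any other action of the ligand cannot be told apart either. The sources used here do not say whether the tagged line is 1 clone or whether the 2 libraries of a group came from separate cultures. The p-values therefore measure the spread between these libraries, which may be technical. The level of the fusion protein was not analysed here.

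The DMSO libraries A and B held 3540104 and 3546020 read counts in peaks, and the 4 h libraries A and B held 3641032 and 4044019. The median peak held 48 to 69 counts over the 8 libraries. Levels are given as CPM, a peak's counts scaled to a common total of counts in peaks and between libraries by TMM, and changes as log2 ratios of 4 h over DMSO. The scaling assumes that most peaks do not change, so a change shared by all peaks cannot be seen. As a check of the labelled cell type, the myogenic loci MYOD1, MYOG, MYF5, SOX8 and PITX3 held 60 tested peaks within 50 kb, 15 of them at MYOD1, and the peak at the MYOG start averaged 112 CPM. Among marker loci of other lineages, tested peaks within 50 kb numbered 2 at the liver gene ALB, 3 at the T cell gene CD3E, 4 at the epithelial gene EPCAM and 0 at the leukocyte gene PTPRC.

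H3K27ac is deposited by the acetyltransferases p300 and CBP and marks active promoters and enhancers. PAX3-FOXO1 joins the DNA-binding domains of the muscle progenitor factor PAX3 to the activation domain of FOXO1, and it binds mostly distal enhancers in this tumour, where it recruits coactivators. The FKBP tag lets dTAG47 bridge the fusion to a ubiquitin ligase, which sends it to the proteasome. An early time point after such degradation is used to see chromatin changes before later changes in gene expression add to them.

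Genes are named from general knowledge of where they lie on hg19, the build of the peaks, since the gene tables at hand are on GRCh38. Distances run to the edge of a gene body and are approximate, by up to part of a kb, and a named gene need not be the nearest. Of the genes of the lists below, 66 had a start in the RefSeq table. A lower peak lay within 1 kb of that start at 3 of them (PRDM12, GREM1 and SKP2). The promoters of GREM1, a secreted BMP antagonist, and PRDM12, the transcription factor at the densest cluster of losses, are shown. Their RefSeq promoters, 250 bases before to 50 after the start on GRCh38.p14, plus strand, lie at chr9:130664344-130664643 for PRDM12 and chr15:32717754-32718053 for GREM1. Capitals mark a match to GTCAC, a core of sites bound by the paired domain of PAX3, read here on the opposite strand.
PRDM12: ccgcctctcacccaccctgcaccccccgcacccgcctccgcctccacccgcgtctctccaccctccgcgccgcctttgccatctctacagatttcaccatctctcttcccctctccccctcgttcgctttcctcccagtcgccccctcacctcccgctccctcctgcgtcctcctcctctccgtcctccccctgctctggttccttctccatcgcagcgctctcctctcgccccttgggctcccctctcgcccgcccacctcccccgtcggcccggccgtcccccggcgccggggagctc
GREM1: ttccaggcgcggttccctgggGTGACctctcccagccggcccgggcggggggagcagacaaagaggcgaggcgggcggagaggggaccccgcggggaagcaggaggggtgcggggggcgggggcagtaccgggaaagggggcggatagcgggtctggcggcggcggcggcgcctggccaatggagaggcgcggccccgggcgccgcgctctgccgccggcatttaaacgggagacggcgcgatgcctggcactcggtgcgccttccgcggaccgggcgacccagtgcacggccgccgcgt
GTCAC, searched on both strands, was found 1 time in the GREM1 promoter and 0 times in that of PRDM12, and 42.5% of 35116 promoters of the table hold it. The E-box CANNTG (68.7% of promoters), the homeodomain core TAATTA (4.84%), the forkhead core TGTTTAC (3.42%) and the AP-1 site TGANTCA (7.71%) had 0 matches in either. The SKP2 promoter, searched in the same way and not printed, had 0 matches to GTCAC and to each of the other patterns. Each pattern was searched by itself, and matches of different patterns could overlap. A match is only a run of letters in this window. The promoters are on GRCh38 and the peaks on hg19, so how far a peak covers the printed bases was not computed.

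The densest run of gains lay beside 2 muscle microRNA genes, MIR1-1 and MIR133A2. Their guide strands, which restrain non-muscle and proliferative transcripts during muscle differentiation, are printed because the clearest gains surround them. Capitals mark the seed, bases 2 to 8, and the seeds differ between the 2 microRNAs.
hsa-miR-1-3p: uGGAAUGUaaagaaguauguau
hsa-miR-133a-3p: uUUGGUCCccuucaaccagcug

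After 4 h, H3K27ac fell at 697 peaks (1.67% of those tested) and rose at 237 (0.567%), so 934 peaks (2.23%) passed the test in all (edgeR quasi-likelihood test, Benjamini-Hochberg adjusted p under 0.05). A lower count can come from fewer cells with the mark or from less of it per cell, which cannot be told apart. The median lower peak went from 21.8 CPM in DMSO to 11.8 at 4 h, with a median log2 change of -0.86, and 243 of the 697 passed 2-fold. Gains were smaller: the median higher peak went from 15.9 to 24.9 CPM, with a median log2 change of 0.66, and 40 of the 237 passed 2-fold. Over all tested peaks the median log2 change was 0.004, and 49.4% of peaks had a negative change. Both 4 h libraries lay below both DMSO libraries at all 697 lower peaks, and above them at 236 of the 237 higher ones. Among all tested peaks 21.5% separated downward and 21.4% upward in this way. The same libraries made the calls, so the separation of called peaks follows largely from their choice and is no further evidence.

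**Figure D1:**
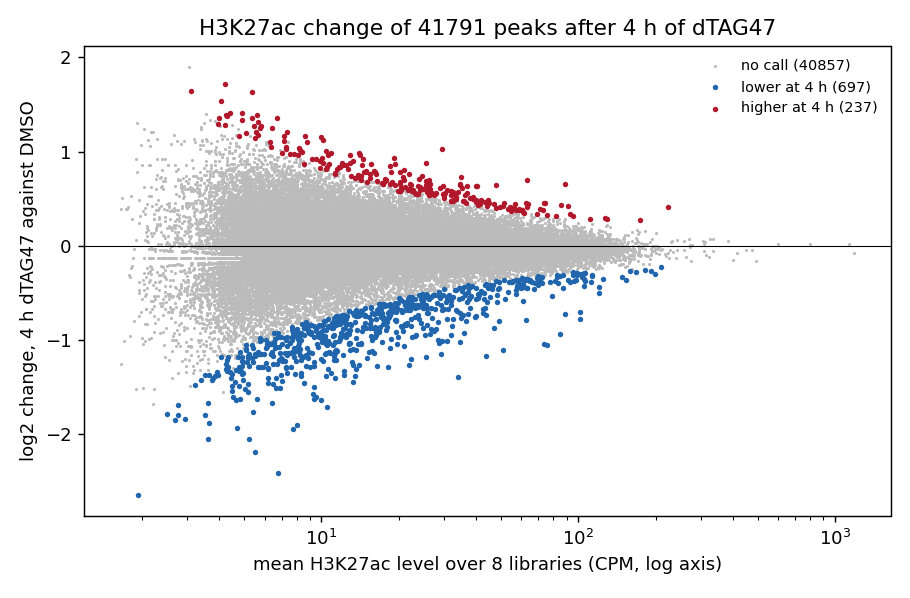
Each point is 1 of 41791 tested peaks, with the mean H3K27ac level over 8 libraries in CPM on a log axis against the log2 change of 4 h over DMSO; the 697 lower peaks are blue and the 237 higher ones red. Losses reach further from 0 than gains, and peaks of low level need a larger change to be called.

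The number of calls depended on the test. DESeq2's Wald test on the same peaks, with Benjamini-Hochberg adjustment, called 78 lower and 4 higher peaks, against 1072 and 541 at an unadjusted p under 0.05 (2999 and 2459 with edgeR). Every library moved the counts when it was dropped from the edgeR fit: dropping DMSO A gave 330 lower and 69 higher peaks, DMSO B 274 and 58, 4 h A 382 and 98, and 4 h B 298 and 43.

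The 12 strongest losses among peaks of at least median level are described first. SPG7, which encodes a subunit of a mitochondrial inner membrane protease, held the largest of them inside the gene, at chr16:89608661-89609061. That peak measured 59.8 and 65.9 CPM in DMSO libraries A and B and 23.2 and 24.6 CPM in the 4 h libraries. The groups were far apart, with a log2 change of -1.39 (SE 0.13, edgeR adjusted p = 1.13e-17). It was 1 of 3 peaks of an SPG7 region in which all 3 changes were negative and 2 were called. The SPG7 start also carried a smaller loss, at chr16:89574137-89574537, from 218.6 and 230.7 CPM to 178.6 and 185.1 CPM, a log2 change of -0.30 (SE 0.07, edgeR adjusted p = 0.00195, 0.901 in the weakest alternative).

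Near CAMK1G, a calcium/calmodulin-dependent kinase gene, 2 neighbouring regions each lost acetylation. At chr1:209699070-209699470, 57.6 kb from the gene, the DMSO libraries measured 26.5 and 32.1 CPM and the 4 h libraries 13.6 and 10.4 CPM (log2 change -1.29 with SE 0.18, adjusted p = 3.43e-08 by edgeR). At chr1:209721628-209722028, 35.0 kb away, 22.5 and 34.1 CPM became 10.6 and 12.7 CPM (log2 change -1.27 with SE 0.19, adjusted p = 1.95e-07 by edgeR). The DMSO libraries differed from each other at this last peak, and even the lower of them lay above both 4 h libraries, as the choice of named peaks requires. All 4 tested peaks of the pair of regions were called lower, but the call at chr1:209701213 was lost in 6 of 12 alternatives.

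EPAS1, the gene for the hypoxia factor HIF-2 alpha, held a peak at chr2:46560551-46560951 that went from 26.8 and 22.2 CPM to 11.7 and 8.69 CPM (log2 change -1.27 with SE 0.20, adjusted p = 1.17e-06 by edgeR). In FAM81A, the peak at chr15:59739917-59740317 went from 40.4 and 39.5 CPM to 16.9 and 16.4 CPM (log2 change -1.26 with SE 0.15, adjusted p = 1.84e-10 by edgeR). The 2 libraries of each group were close together there, and all 3 peaks of that FAM81A region were called lower, including the peak at the gene start (log2 change -0.66). The start peak lost its call in 4 of 12 alternatives. FGGY, which encodes a carbohydrate kinase, held a peak at chr1:59880372-59880772 that fell from 42.7 and 33.5 CPM to 19.4 and 13.9 CPM (log2 change -1.21 with SE 0.16, adjusted p = 3.34e-09 by edgeR).

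Between UNKL and CLCN7, the latter a lysosomal chloride transporter gene, the peak at chr16:1480950-1481350 was among the strongest in level. It measured 79.1 and 72.4 CPM in DMSO and 31.6 and 35.7 CPM at 4 h (log2 change -1.17 with SE 0.11, adjusted p = 3.34e-16 by edgeR). It was the 1 called peak of 6 in its region, where 5 of 6 changes were negative. GALC, the gene of a lysosomal galactolipid hydrolase, lost acetylation at its start, chr14:88459340-88459740, an isolated peak that went from 23.3 and 21 CPM to 9.54 and 10.7 CPM (log2 change -1.13 with SE 0.20, adjusted p = 3.1e-05 by edgeR). The remaining named losses lay inside PLXDC1 (log2 change -1.19), inside the axon guidance ligand gene NTN1 (-1.12), beside PRDM12 (-1.10) and at chr6:44627664-44628064, where no gene is named (-1.15). In the NTN1 region 1 peak of 5 was called, and its change was the 1 negative one. All 12 losses kept their call in every alternative of scaling, filter, test and left-out library, with an adjusted p of at most 0.0461 (NTN1).

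**Figure D2:**
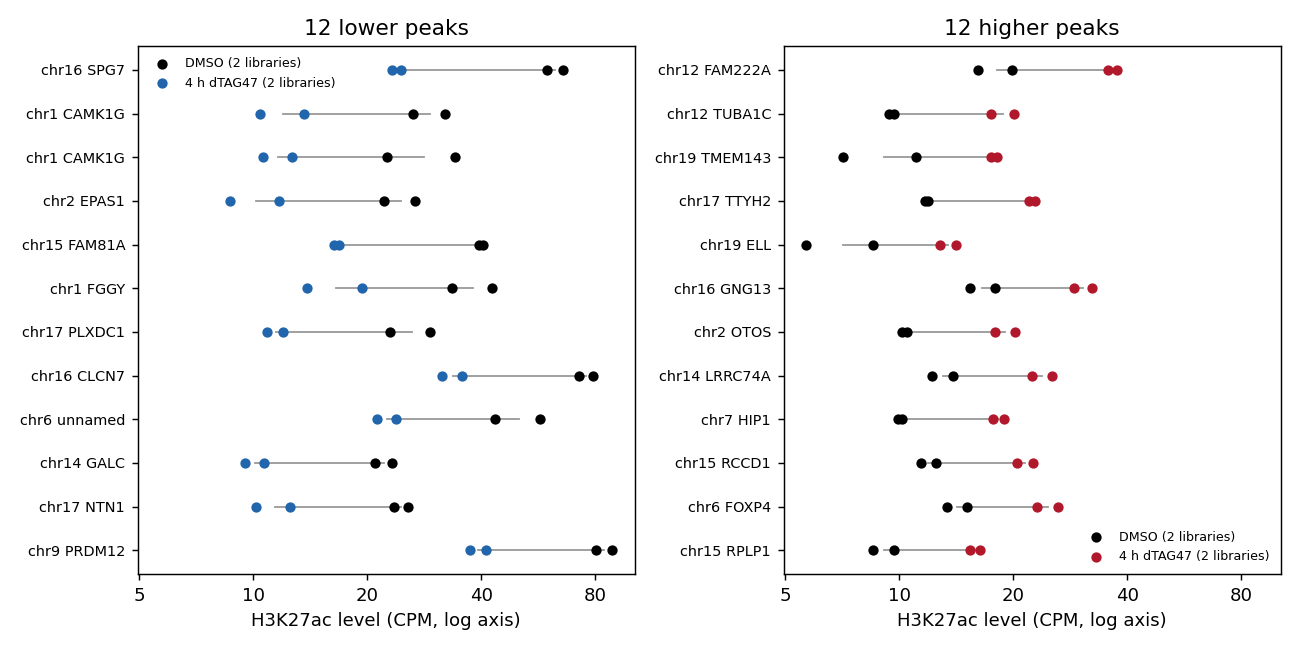
H3K27ac level in CPM (log axis) of the 12 lower and 12 higher named peaks, each labelled by chromosome and a gene in or near it; black points are the 2 DMSO libraries, coloured points the 2 libraries at 4 h, and lines join the group means. The peaks were chosen so that the 2 groups do not overlap in any row. The gaps are wider among the losses.

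PRDM12, a PR-domain transcription factor gene known from sensory neuron development, lay in the 1 Mb window with most losses, chromosome 9 from 133 to 134 Mb. In that window 11 of 58 tested peaks were called lower (19%) and 0 higher: 5 at PRDM12, 4 in ASS1 and 2 with no gene named. At PRDM12 the strongest peak, chr9:133540074-133540474 just inside the gene, measured 130.1 and 117.6 CPM in DMSO and 59.7 and 59.6 CPM at 4 h (log2 change -1.05 with SE 0.09, adjusted p = 2.62e-19 by edgeR). At chr9:133536055-133536455, before the gene, 117.3 and 117.9 CPM became 56.4 and 57.6 CPM (log2 change -1.04 with SE 0.09, adjusted p = 3.98e-19 by edgeR). At chr9:133538929-133539329, 0.7 kb from the gene, 80.6 and 88.6 CPM became 37.4 and 41.2 CPM (log2 change -1.10 with SE 0.11, adjusted p = 3.1e-16 by edgeR). The 4 libraries thus fell into 2 tight pairs at each peak, each well apart from the other. The weakest peak of the region was the exception, at 12.8 and 15.6 CPM in DMSO and 17.7 and 15.9 CPM at 4 h (log2 change 0.24, not called).

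ASS1 encodes argininosuccinate synthase, an enzyme of arginine synthesis. Of the 13 peaks of its region 4 were called lower, and all 4 lay next to each other inside the gene. The strongest, chr9:133355271-133355671, went from 133.2 and 134.7 CPM to 76.9 and 63.8 CPM (log2 change -0.93 with SE 0.09, adjusted p = 4.13e-17 by edgeR). The other called peaks changed by -0.56, -0.72 and -0.66. Upstream peaks of the region did not pass, such as chr9:133297541-133297941 with 49.5 and 50.6 CPM in DMSO against 46.4 and 43.9 CPM (log2 change -0.15 with SE 0.12, adjusted p = 0.636 by edgeR). Under DESeq2's adjusted test 4 of the 5 PRDM12 losses and 2 of the 4 ASS1 losses stayed called.

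**Figure D3:**
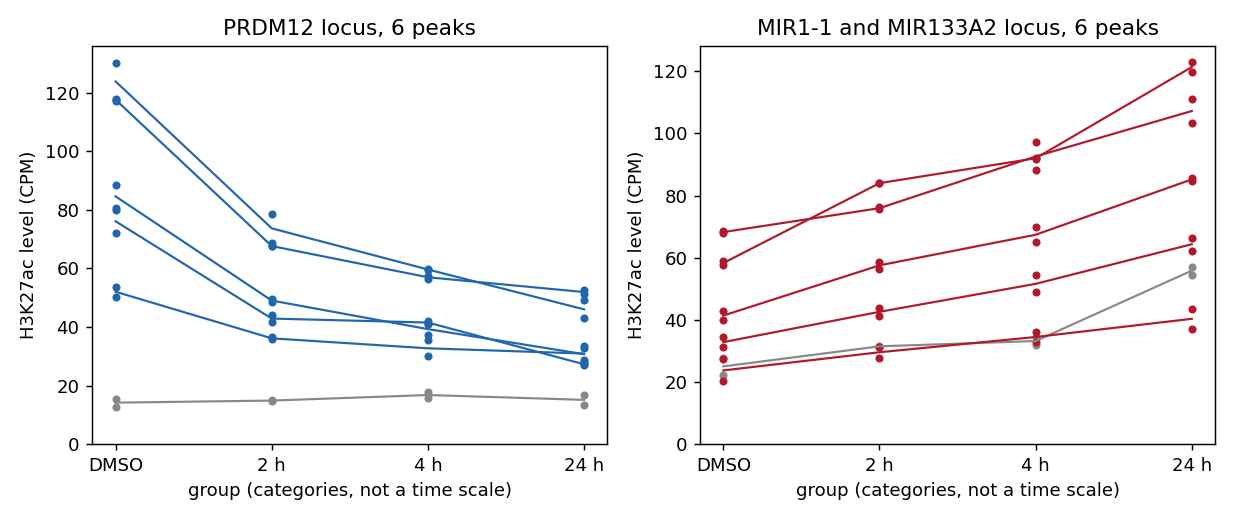
H3K27ac level in CPM of the 6 peaks of the PRDM12 region and the 6 peaks of the region holding MIR1-1 and MIR133A2, by group (groups are categories, not a time scale); points are libraries, lines join group means, and grey marks the peak of each region not called at 4 h. At PRDM12 5 of 6 peaks are lower at 4 h than in DMSO, and at the microRNA locus 5 of 6 are higher.

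Other windows held up to 7 losses each. Outside the named peaks and the most changed locus peaks, the loss windows and the gene starts read here held 41 losses. DESeq2 kept the call of 15 of these 41 and lost 26. On chromosome 1 from 20 to 21 Mb, 7 of 29 peaks were called lower, and 89.7% of the 29 had a negative change. The largest of these was inside TMCO4, at chr1:20096295-20096695, where 51.8 and 57.1 CPM became 31.4 and 26.1 CPM (log2 change -0.93 with SE 0.13, adjusted p = 1.23e-08 by edgeR). The strongest in level was at the start of OTUD3, a deubiquitinase gene, with 174.5 and 167.3 CPM in DMSO and 133.3 and 137.2 CPM at 4 h (log2 change -0.34 with SE 0.07, adjusted p = 0.00156 by edgeR, 0.761 in the weakest alternative). On chromosome 6 from 44 to 45 Mb, 7 of 55 peaks were called lower and 1 higher. A single region there of 10 peaks held 5 of the losses, 9 of its 10 changes were negative, and no gene is named within 100 kb.

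On chromosome 17 from 27 to 28 Mb, 7 of 58 peaks were lower, in SEZ6, PIPOX and MYO18A or beside them. PIPOX encodes a peroxisomal sarcosine oxidase and is a reported target of the fusion. Its 2 called peaks changed by -0.60 and -0.63 on the log2 scale, and the 3 called peaks in the neighbouring SEZ6, a neuronal membrane protein gene, by -0.45, -1.02 and -0.87. At PIPOX the peak chr17:27378948-27379348 went from 35.0 and 32.7 CPM to 24.8 and 19.1 CPM (log2 change -0.63 with SE 0.15, adjusted p = 0.00514 by edgeR, DESeq2 0.61). In SEZ6 the peak chr17:27296646-27297046 went from 55.2 and 58.2 CPM to 27 and 28.8 CPM (log2 change -1.02 with SE 0.13, adjusted p = 1.84e-10 by edgeR). The fifth window, chromosome 1 from 209 to 210 Mb, held 6 of 29 peaks lower, 4 of them in the CAMK1G pair of regions.

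Chromosome 11 from 20 to 21 Mb, next in the order with 6 of 32 peaks lower, held the steepest losses of these windows. NELL1, the gene of a secreted protein with roles in bone formation, lost 2 neighbouring peaks. At chr11:20791098-20791498 the libraries measured 13.9 and 21.3 CPM in DMSO and 5.45 and 3.97 CPM at 4 h (log2 change -1.91 with SE 0.26, adjusted p = 1.31e-08 by edgeR). At chr11:20792510-20792910 they measured 17.7 and 18.5 CPM and then 3.82 and 7.69 CPM (log2 change -1.62 with SE 0.24, adjusted p = 4.02e-07 by edgeR). At chr11:20298483-20298883, 86.3 kb from HTATIP2, 20.5 and 21.3 CPM became 7.36 and 5.46 CPM (log2 change -1.71 with SE 0.23, adjusted p = 8.54e-09 by edgeR). The other calls in the window were beside or within 100 kb of DBX1, a homeobox gene (log2 change -0.55 to -1.24).

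Among gains, the region of MIR1-1 and MIR133A2 had 5 of its 6 peaks called higher. The strongest change was at chr20:61164142-61164542, where 39.9 and 42.9 CPM became 69.8 and 65.0 CPM (log2 change 0.70 with SE 0.11, adjusted p = 1.17e-06 by edgeR). At chr20:61155329-61155729, between the 2 genes, 58.9 and 57.7 CPM became 92.2 and 91.8 CPM (log2 change 0.66 with SE 0.09, adjusted p = 8.53e-08 by edgeR). These 2 peaks also passed in all alternatives, with an adjusted p of at most 0.0042. The other 3 calls measured 0.44, 0.65 and 0.54 on the log2 scale and were lost under DESeq2 (adjusted p = 0.185, 0.0705 and 0.834). The peak not called, at chr20:61147999-61148399, moved from 27.9 and 22.2 CPM to 34.4 and 32.0 CPM (log2 change 0.40, edgeR adjusted p = 0.138).

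FAM222A held the largest of the 12 named gains. Its peak at chr12:110157419-110157819 went from 19.9 and 16.2 CPM to 35.7 and 37.7 CPM (log2 change 1.02 with SE 0.15, adjusted p = 3.94e-07 by edgeR), and all 6 peaks of that region had positive changes, from 0.10 to 1.02. The call held in every alternative, which was so for this 1 gain of the 12. Near the alpha tubulin genes TUBA1C (13 kb) and TUBA1A (25.5 kb), the peak chr12:49608331-49608731 went from 9.68 and 9.38 CPM to 17.5 and 20.1 CPM (log2 change 0.98 with SE 0.21, adjusted p = 0.00141 by edgeR, DESeq2 0.278). Inside TMEM143 and 1.7 kb from EMP3, 7.12 and 11.1 CPM became 17.5 and 18.1 CPM (log2 change 0.97 with SE 0.22, adjusted p = 0.00264 by edgeR, DESeq2 0.352). TTYH2, a gene of the tweety channel family, held an isolated peak at chr17:72228514-72228914 that went from 11.7 and 11.9 CPM to 22.9 and 22.1 CPM (log2 change 0.93 with SE 0.19, adjusted p = 0.000708 by edgeR, DESeq2 0.185).

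ELL, the gene of an RNA polymerase II elongation factor, held the weakest gain in level among the 12, at chr19:18555225-18555625, from 5.69 and 8.52 CPM to 12.8 and 14.1 CPM (log2 change 0.92 with SE 0.25, adjusted p = 0.0193 by edgeR, DESeq2 0.6). Close to GNG13, a G protein gamma subunit gene 3.7 kb away, 15.4 and 17.9 CPM became 28.9 and 32.3 CPM (log2 change 0.88 with SE 0.16, adjusted p = 9.08e-05 by edgeR, DESeq2 0.0705). The other named gains lay at LRRC74A (0.87), inside the endocytic adaptor gene HIP1 (0.86) and in RCCD1 (0.85), and farther from OTOS (0.87), the forkhead factor gene FOXP4 (0.80) and the ribosomal protein gene RPLP1 (0.80). DESeq2 kept 1 of the 12, with an adjusted p from 0.0705 to 0.771 for the others. Dropping DMSO A, DMSO B, 4 h A or 4 h B from the fit kept 6, 6, 9 and 4 of them.

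The window with most gains was chromosome 14 from 105 to 106 Mb, with 8 of 90 peaks higher and 1 lower. These 8 lay inside BRF1, a subunit gene of a polymerase III factor, inside PACS2, a sorting protein gene, and near CRIP1 and CRIP2, genes of cysteine-rich LIM proteins. The strongest in level, inside BRF1 at chr14:105680216-105680616, went from 64.1 and 81.0 CPM to 98.4 and 96.0 CPM (log2 change 0.42 with SE 0.09, adjusted p = 0.00141 by edgeR). The largest change, beside CRIP1 at chr14:105955444-105955844, was 0.64 on the log2 scale (SE 0.13, adjusted p = 0.000997 by edgeR). DESeq2 called 0 of the 8 (adjusted p = 0.229 to 0.917). Of the 90 peaks 26.7% had a negative change, against 49.4% of all tested peaks.

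The other windows with most gains were chromosome 2 from 241 to 242 Mb (6 of 63 peaks), chromosome 20 from 61 to 62 Mb (6 of 67, of which 5 at the microRNA genes), chromosome 15 from 91 to 92 Mb (4 of 21) and chromosome 14 from 77 to 78 Mb (4 of 48). On chromosome 15 the gains lay beside the helicase gene BLM, inside MAN2A2, a Golgi mannosidase gene, and inside RCCD1. On chromosome 14 there were 2 in LRRC74A, 1 at its edge and 1 farther off. Outside the 12 named gains, the 5 windows held 25 gains, and DESeq2 kept 2 of the 25, both at the microRNA genes.

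Gene lists were read by their peaks within 50 kb of each gene body, so a counted peak can lie inside another gene. The 89 genes together held 697 tested peaks, of which 32 were called lower (4.59%, against 1.67% of all tested) and 4 higher (0.574%, against 0.567%). The fusion gene's partners and 22 reported targets of PAX3-FOXO1 held most of the losses, 25 of 197 peaks (12.7%) at 13 of 24 genes, and 0 gains. The median log2 change of these 197 was -0.09. DESeq2 called 10 of the 197 lower. These genes were chosen as reported targets and with earlier results of these data known, so the count is no independent evidence.

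Among transcription factor genes of that list, the strongest level was at PAX3, 20.5 kb from the gene, where 209.8 and 206.3 CPM became 173.1 and 174.7 CPM, a small change with no overlap (log2 change -0.26 with SE 0.07, adjusted p = 0.0169 by edgeR, DESeq2 0.565). TFAP2B, an AP-2 factor gene, had a weak peak 2.8 kb away that went from 9.39 and 8.52 CPM to 5.18 and 3.23 CPM (log2 change -1.10 with SE 0.31, adjusted p = 0.0311 by edgeR). Near OLIG2, a neural basic helix-loop-helix gene, a peak 28.7 kb away went from 24.5 and 31.5 CPM to 17.2 and 15.4 CPM (log2 change -0.79 with SE 0.17, adjusted p = 0.00146 by edgeR, DESeq2 0.386). PRDM16, a brown fat and muscle fate regulator gene, had 3 lower peaks of 20. The strongest of these, chr1:3284720-3285120, went from 32.2 and 29.0 CPM to 13.6 and 18.9 CPM (log2 change -0.90 with SE 0.17, adjusted p = 7.83e-05 by edgeR). The PRDM16 peak with the largest change (-1.54) had only 4.55 and 5.4 CPM in DMSO and 2.18 and 1.24 CPM at 4 h.

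Ligand and receptor genes came next. FGF8, a secreted growth factor gene, lost 2 strong peaks inside the gene. At chr10:103529989-103530389, 146.6 and 147.5 CPM became 87.5 and 84.4 CPM (log2 change -0.78 with SE 0.08, adjusted p = 7.06e-14 by edgeR), and at chr10:103535537-103535937, 144.6 and 139.5 CPM became 78.3 and 95.8 CPM (log2 change -0.70 with SE 0.08, adjusted p = 1.78e-11 by edgeR). The start of GREM1, a secreted BMP antagonist gene, went from 42.4 and 48.3 CPM to 34.4 and 29.0 CPM (log2 change -0.52 with SE 0.13, adjusted p = 0.00793 by edgeR, DESeq2 0.601). In ALK, a receptor kinase gene, 1 of 28 peaks was called, from 20.5 and 21 CPM to 11.5 and 14.6 CPM (log2 change -0.66 with SE 0.19, adjusted p = 0.0394 by edgeR, DESeq2 0.99). FGFR4, a receptor kinase gene and widely used fusion target, had 0 called of 10 peaks (median log2 change -0.06), and MET had 0 of 5. Since 1.67% of all tested peaks were called lower, 0 calls at so few peaks do not set these 2 genes apart.

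Calls were few at the other reported targets. ABAT, the GABA transaminase gene, had 1 lower peak of 7, from 24.5 and 24.4 CPM to 10.9 and 17.6 CPM (log2 change -0.76 with SE 0.18, adjusted p = 0.00619 by edgeR, DESeq2 0.614). At the start of SKP2, a ubiquitin ligase subunit gene of the cell cycle, 60.6 and 61.4 CPM became 37.9 and 54.6 CPM (log2 change -0.39 with SE 0.11, adjusted p = 0.035 by edgeR, DESeq2 0.958), and the 4 h libraries differed more from each other than library B did from DMSO. No peak was called at FOXO1, CNR1, NRCAM, KCNN3, JARID2, TFAP2A, CDH3, BMP5 or RASSF4. Those loci held 1 to 17 tested peaks each. With 1.67% of all tested peaks called lower, 0 calls at so few peaks do not set these loci apart.

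Myogenic regulators, the transcription factors of the muscle programme, showed 1 loss and 1 gain among 112 peaks, with a median log2 change of 0.05. These were 0.893% each, against 1.67% lower and 0.567% higher of all tested peaks. PITX3 had the loss, 28.3 kb from the gene, from 29.0 and 33.8 CPM to 14.5 and 20.8 CPM (log2 change -0.82 with SE 0.16, adjusted p = 0.00028 by edgeR, DESeq2 0.2). MYCN, the MYC family oncogene, had the gain, 25.9 kb away, from 35.0 and 38.1 CPM to 49.4 and 48.6 CPM (log2 change 0.42 with SE 0.12, adjusted p = 0.0371 by edgeR, DESeq2 0.925). None of the 15 peaks at MYOD1, the 14 at MYOG or the 12 at SOX8 was called, with median log2 changes of -0.11, 0.27 and 0.08. The summed level of the MYOG peaks was 465.1 CPM in DMSO and 545.6 CPM at 4 h.

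Muscle structure genes held 5 losses and 1 gain among 131 peaks (3.82% and 0.763%, against 1.67% and 0.567% of all tested peaks). The losses were inside or within 50 kb of 3 of the 19 genes. CSRP3, a LIM protein gene of the sarcomere's Z disc, lost both peaks of 1 region inside the gene: chr11:19206070-19206470 went from 23.1 and 25.3 CPM to 8.18 and 9.43 CPM (log2 change -1.45 with SE 0.20, adjusted p = 3.22e-08 by edgeR), and its neighbour changed by -1.09. In TTN, the titin gene, a weak peak went from 9.68 and 10.5 CPM to 3.27 and 3.97 CPM (log2 change -1.47 with SE 0.31, adjusted p = 0.000952 by edgeR, DESeq2 0.374). TNNT2, the cardiac troponin T gene, had 2 losses just inside the limit of distance, the stronger 46.7 kb away, from 48.1 and 40.3 CPM to 19.9 and 23.8 CPM (log2 change -1.01 with SE 0.14, adjusted p = 3.02e-08 by edgeR). At TNNI2, a fast troponin I gene, the gain went from 53.8 and 45.7 CPM to 63.0 and 65.0 CPM (log2 change 0.36 with SE 0.11, adjusted p = 0.0454 by edgeR, DESeq2 1). Actin, creatine kinase, desmin, myosin and acetylcholine receptor genes of the list had 0 calls.

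Cell cycle genes had 1 gain besides the SKP2 loss among 65 peaks (1.54% each, against 0.567% higher and 1.67% lower of all tested peaks). Near CDK4, the D-cyclin partner kinase, a peak 12.1 kb away rose from 174.2 and 179.6 CPM to 242.9 and 227.3 CPM (log2 change 0.41 with SE 0.07, adjusted p = 3.01e-06 by edgeR, DESeq2 0.00291). It was the 1 call among 19 peaks of that locus, whose start peak averaged 795.1 CPM, and the summed locus level was 3423.7 CPM in DMSO and 3448.9 CPM at 4 h. Of 86 peaks at immediate early and ERK feedback genes 1 was called (1.16%), in JUN. It went from 119.6 and 119.3 CPM to 92.2 and 102.0 CPM (log2 change -0.30 with SE 0.08, adjusted p = 0.0305 by edgeR, DESeq2 0.925). The 48 peaks at ID and E protein genes, which bind and oppose or pair with the myogenic factors, had 0 calls. Housekeeping genes had 1 gain of 37 peaks (2.7%), 28.6 kb from PPIA (log2 change 0.41, edgeR adjusted p = 0.0259, DESeq2 0.76). Of the 22 most changed locus peaks, 6 losses (TNNT2, FGF8, CSRP3, NELL1, ASS1 and PRDM12) and 0 gains passed in every alternative, and CDK4 failed only the test against a 1.2-fold change (adjusted p = 0.219).

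**Figure D4:**
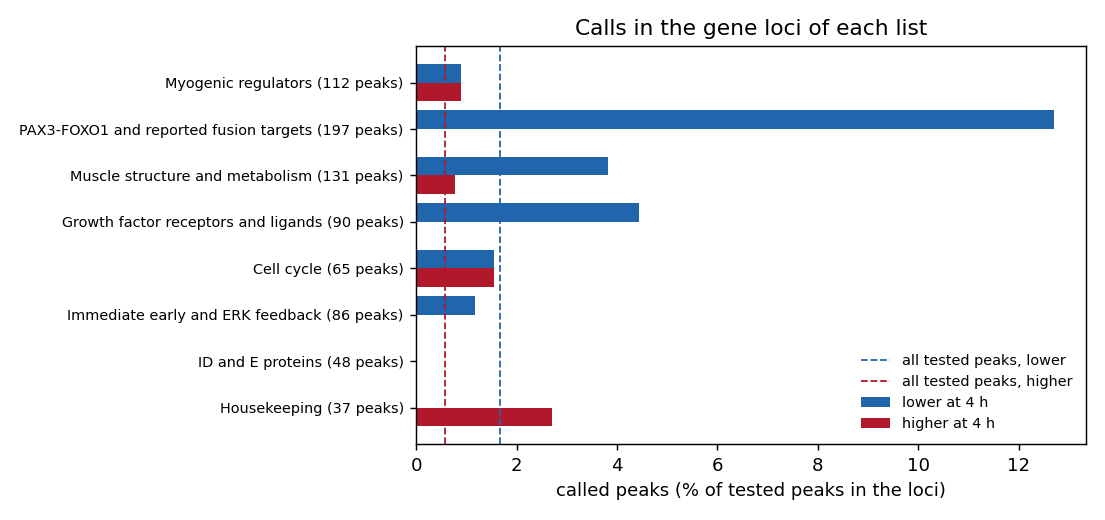
Share of tested peaks called lower (blue) or higher (red) at 4 h within 50 kb of the genes of each list, with the number of peaks in brackets; dashed lines mark the shares over all tested peaks, 1.67% lower and 0.567% higher. The reported fusion targets stand at 12.7% lower and 0% higher.

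Gene starts were read separately. Of the 89 genes, 66 had a start in the RefSeq table and 56 of these had a tested peak within 1 kb, 64 peaks in all. The 4 lower ones (6.25% of the 64, against 1.67% of all tested peaks and 4.59% of all peaks at these loci) were at PRDM12 (2), GREM1 and SKP2, 0 were higher, and the median log2 change was -0.04. Genes without a start in that table could not be read this way, so calls at their starts would be missed. The TNNI2 gain, 0.2 kb from the edge of its gene, was not counted as a start peak.

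Peak density was examined next. Peaks were joined into 26314 regions by a gap limit customary in super-enhancer work, which lies between the alternatives of 5 kb and 25 kb, and tested peaks were counted in 1 Mb windows. The share of peaks called lower rose from 1.27% among single-peak regions to 2.3% in regions of 5 to 7 peaks and was 2.23% in regions of 8 or more. The share called higher rose from 0.279% to 1.35% and 1.53%. By windows, the share called higher rose from 0.182% where a window held 1 to 10 tested peaks to 1.41% at 61 or more, while the share called lower stayed between 1.42% and 2.01% without an order. Level moved with both measures: the median peak rose from 10.8 to 24.3 CPM across region sizes and from 9.13 to 22.5 CPM across window densities. Across 5 equal bins of rising level the share called higher was 0.311%, 0.347%, 0.514%, 0.981% and 0.682%, and the share called lower was between 1.35% and 1.85%. The part of level in the density pattern was not tested.

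**Figure D5:**
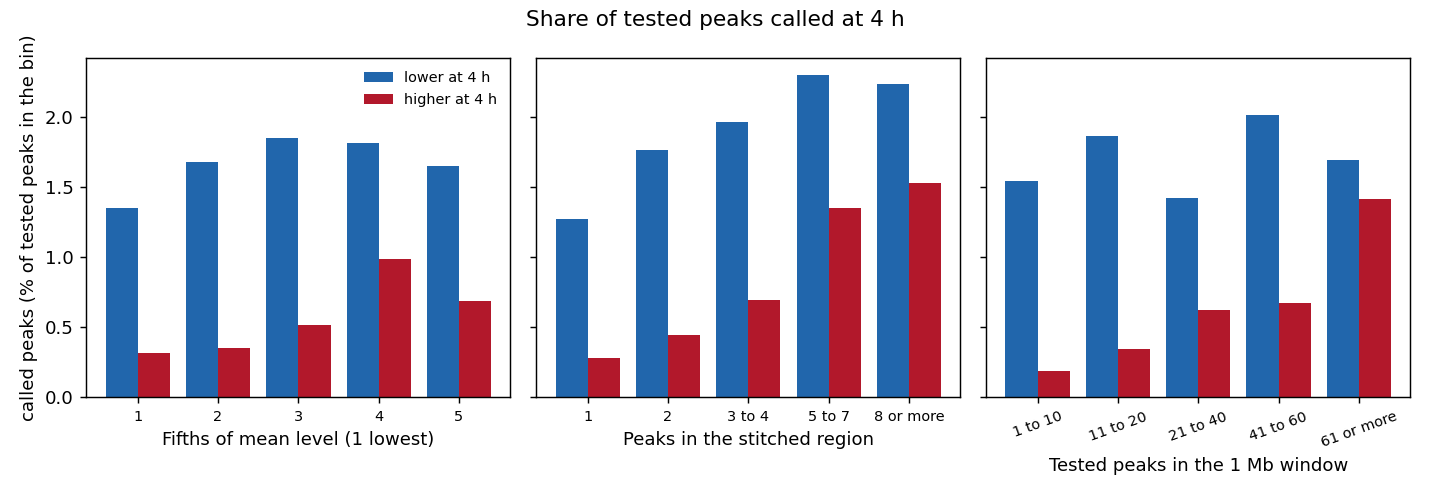
Share of tested peaks called lower (blue) or higher (red) at 4 h, in percent of the bin, by 5 equal bins of mean level, by number of peaks in the stitched region and by number of tested peaks in the 1 Mb window. Gains are rarest in single-peak regions (0.279%) and sparse windows (0.182%), and losses vary less across the bins.

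Called peaks were spread over many places. The 697 losses lay in 596 regions, 228 of them as the only peak of a region, and 18 regions held 3 or more. The 237 gains lay in 213 regions, 50 as single peaks, and 4 regions held 3 or more. Only 1 region held calls of both directions. Uncalled neighbours in the same region leaned the same way: 659 of 953 (69.2%) beside a loss were negative, with a median log2 change of -0.14, and 503 of 655 (76.8%) beside a gain were positive, with a median of 0.13. Of 2648 windows with a tested peak, 474 (17.9%) held a loss, 181 (6.84%) a gain and 49 both. Windows with 3 or more calls numbered 51 for losses, with 195 of them, and 8 for gains, with 37.

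Tested as sums, 523 of 26144 regions were lower (2%) and 254 higher (0.972%), 777 in all (2.97%); DESeq2 called 80 and 10. Dropping DMSO A, DMSO B, 4 h A or 4 h B left 300, 250, 292 and 257 lower regions and 100, 100, 108 and 83 higher ones. The SPG7 region chr16:89602855-89611380 went from 111.3 and 114.6 CPM to 46.3 and 47.9 CPM (log2 change -1.26 with SE 0.09, adjusted p = 6.86e-30 by edgeR). The CSRP3 region chr11:19206070-19207506 had the same size of change, from 47.4 and 47.3 CPM to 18.3 and 21.1 CPM (log2 change -1.26 with SE 0.14, adjusted p = 6.73e-14 by edgeR). The other named losses were the CAMK1G pair (-1.20 and -1.09), a region 53.3 kb from FAM89A (-1.18) and one 86.3 kb from HTATIP2 (-1.10). The region near FAM89A held a peak with a log2 change of -2.41, from 14.2 and 13.6 CPM to 2.45 and 2.73 CPM. All 6 kept their call in every alternative.

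Gains by region were led by PLEKHA7, an adherens junction protein gene, where chr11:17002810-17004112 went from 17 and 19.2 CPM to 32.6 and 31.8 CPM (log2 change 0.82 with SE 0.16, adjusted p = 8.61e-05 by edgeR, DESeq2 0.0609). The LRRC74A region chr14:77334000-77335452 went from 25.8 and 26.3 CPM to 45.4 and 44.9 CPM (log2 change 0.79 with SE 0.13, adjusted p = 3.16e-06 by edgeR) and was the 1 gain of 6 that passed in every alternative. The others lay in PLEKHB1 (0.69), 9.8 kb from C1orf198 (0.67), 3.0 kb from MIR129-1 (0.67) and 15.6 kb from the chemokine gene CCL2 (0.64), with DESeq2 adjusted p from 0.115 to 0.432.

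Finally, the peaks called at 4 h were followed at the other times. The comparisons at 2 h and 24 h share the DMSO libraries with the one at 4 h. Of the 697 losses, 315 were also called lower at 2 h (background 1.03%), 557 at 24 h (4.88%), 296 at both and 121 at neither. Of the 237 gains, 29 were also called higher at 2 h (0.194%), 138 at 24 h (3.46%), 23 at both and 93 at neither. The direct test of 4 h against 2 h called 0 peaks by edgeR (0% lower and 0% higher), so the calls at 4 h alone do not show a difference from 2 h. From 4 h to 24 h, where 0.68% of all tested peaks were called lower and 0.438% higher, 18 losses went further down and 14 came back, and 4 gains went further up and 6 came back. The same 4 h libraries picked these peaks and enter this test, so the choice favours a return.

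Setting 24 h against 2 h draws on separate libraries, with no DMSO and no 4 h sample in it. There the 697 losses had a median log2 change of -0.22 (quartiles -0.49 and 0.01), 516 of them (74%) were negative, and 118 were called lower and 6 higher. The 237 gains had a median of 0.16 (quartiles -0.02 and 0.36), 73% were positive, and 25 were called higher and 5 lower. All tested peaks had a median of 0.00 with 50.1% negative, and 2.49% were called lower and 1.69% higher. PRDM12 showed the pattern of the losses, with the peak at chr9:133540074 changing by -0.67 from 2 h to 24 h (edgeR adjusted p = 3.65e-07), and so did SPG7 (-0.85, edgeR adjusted p = 1.94e-05). NELL1 did not show it: its peaks at chr11:20791098 and chr11:20792510 changed little, by -0.08 and -0.09 (edgeR adjusted p = 0.932 and 0.914). The microRNA locus peak at chr20:61155329 changed by 0.53 (edgeR adjusted p = 4.8e-07), while FAM222A was at 0.38 (edgeR adjusted p = 0.0694).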

How the data were processed

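H3K27ac ChIP-seq was analysed from 1 deposited table of raw read counts per peak for 8 libraries. The authors deposited whole-number counts, per the file headers, over peak windows common to all libraries. The submitters' processing notes name Trimmomatic 0.32, Bowtie2, MACS2, DiffBind, DESeq2, hg19 and dm3, without roles. The sources used here do not say how peaks were called, whether duplicates were removed or whether Drosophila chromatin was added. The 2 input libraries were not analysed here. Coordinates are those of the table (hg19); a start may be off by 1 base.

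Columns carry treatment, time and the letters A and B, and were matched to groups by name (0 columns without a group). In R 4.3.3, edgeR 4.0.16 was used on counts with filterByExpr (minimum count 10, minimum total 15), which left out 276 peaks, TMM scaling, and 1 robust quasi-likelihood fit of the 4 groups. The common dispersion was 0.00108 (biological coefficient of variation 3.29%) and the prior degrees of freedom had a median of 182, so each p-value rests mostly on the spread shared by all peaks. Each SE is the absolute log2 change divided by the square root of the test's F statistic. It rests mostly on the same shared spread and is not the spread of a single peak's libraries. Adjustment ran over all tested peaks or regions, with a threshold of 0.05. The procedure was tested on simulated data. Alternatives were other scalings, filters and groups in the fit, a test against 1.2-fold, DESeq2 1.42.0, leaving out each library, and a block on the column letter.

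Named peaks are the 12 losses and 12 gains with the largest log2 change among called peaks of at least median level whose groups did not overlap, at most 1 per region. Named regions, of 2 or more peaks, are the 6 and 6 by the same rule, and windows are the 5 with most losses and the 5 with most gains, plus the next for losses, which was added after its values were seen. Locus genes are those of the lists with a call, by the most changed called peak. Members and lists were chosen with earlier results of these data known. Gene bodies (164 genes) were placed on hg19 from general knowledge, not from a file. All 164 symbols were on the same chromosome, in the same order, in the RefSeq table of GRCh38.p14, and 148 had a gene length within 10% of it. The result of 1 marker locus is not reported here.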

Additional observations from a re-analysis of the deposited data

Results flagged for a closer look

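Of 132 peaks and 12 regions looked at (those named above, all called peaks of the listed loci and windows, and every peak of the 4 regions read peak by peak), 9 peaks differed between 4 h and 24 h by the direct test (edgeR quasi-likelihood test, adjusted over all tested peaks, of which 0.68% were lower and 0.438% higher at 24 h than at 4 h), and 0 differed between 2 h and 4 h. The ELL peak at chr19:18555225 rose further, by 0.89 on the log2 scale (adjusted p = 0.001), but it was picked by its mean level over all 8 libraries, which includes its 25.2 CPM at 24 h against 13.5 CPM at 4 h, so the choice of this peak favours such a rise. Both PRDM12 peaks at chr9:133535360 and chr9:133540074 were lower still at 24 h, by -0.61 (adjusted p = 0.00205) and -0.38 (adjusted p = 0.0381), and so was the TMCO4 peak at chr1:20092497, by -0.56 (adjusted p = 0.00939). At the microRNA locus, the peaks at chr20:61155329 and chr20:61164142 were higher at 24 h than at 4 h by 0.40 (adjusted p = 0.000915) and 0.34 (adjusted p = 0.0264), and the peak at chr20:61147999, not called at 4 h, was higher by 0.75 (adjusted p = 5.24e-06). The peak upstream of ASS1 at chr9:133297541, also not called at 4 h, was lower at 24 h than at 4 h by -0.43 (adjusted p = 0.0448). The weak PRDM16 peak at chr1:3073414 went the other way: called lower at 4 h, it was higher at 24 h than at 4 h by 2.01 (adjusted p = 0.000705), and it did not pass against DMSO at 24 h (log2 change 0.47, adjusted p = 0.401). Its mean was 4.98 CPM in DMSO, 4.32 at 2 h, 1.71 at 4 h and 6.89 at 24 h. It was picked by its low 4 h value, which also enters this test, so its choice favours such a return.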

How the results depend on the processing

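The columns carry the letters A and B, not the labels' replicate numbers. With the letter as a replicate block, chosen after seeing the data, 711 peaks were lower and 249 higher, as were 526 and 256 regions and 32 and 4 locus peaks, and no call of a named peak or region was lost. Same-lettered libraries did not deviate together (correlation of the A minus B differences between groups, across peaks, -0.03 to 0.05), so the letters were not taken to pair the libraries. No result changed direction under any alternative run. Other scalings (703 or 657 lower peaks, 229 or 296 higher), other filters (701 or 672, 235 or 227) and a fit of DMSO and 4 h only (733 and 237) stayed within 1.5 times, as did the stitching distances; scaling moved the median log2 change of all peaks to at most 0.017. Against 1.2-fold, 251 lower and 18 higher peaks and 139 and 9 regions remained past the threshold. DESeq2 called 78 and 4 peaks, 80 and 10 regions, and 12 and 1 peaks in the listed gene loci; its adjusted p was NA for 4052 peaks, 2 named ones (TFAP2B, PRDM16) among them. Leaving out 1 library left 274 to 382 lower and 43 to 98 higher peaks, 250 to 300 lower and 83 to 108 higher regions, and 22 to 25 lower and 1 to 2 higher peaks in the loci. With a reach of 10 kb the loci held 1 gain. Causes were not tested. The alternatives to the change from 2 h to 24 h were chosen after seeing the data, and its medians stayed between -0.20 and -0.30 for losses and 0.14 and 0.25 for gains. With a library left out, 1 group has a single library, assumed to vary like the others. Depth limits weak peaks: in the lowest of 5 bins of level the median called loss was -1.29, against -0.40 in the highest.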

Other observations

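Calls were uneven between chromosomes. The share of tested peaks called lower ran from 0.736% on chromosome 13 (5 of 679) to 2.61% on chromosome 21 (16 of 614), and chromosome 9 held 57 of 2280 (2.5%). Gains were 1.2% of peaks on chromosome 14 (17 of 1418) and 1.16% on chromosome 20 (18 of 1550), and 0 on chromosomes 13, 18 and X, which held 679, 514 and 855 tested peaks. These shares are descriptions and were not tested.

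Outside the gene lists, 2 further gene starts on chromosome 9 had lower peaks, and they are named after their values were seen. At GAS1, a growth arrest gene of a Hedgehog co-receptor, 212.4 and 220.7 CPM in DMSO became 174.0 and 186.6 CPM at 4 h (log2 change -0.26 with SE 0.07, adjusted p = 0.013 by edgeR, DESeq2 0.515). At COL27A1, a fibrillar collagen gene, 69.7 and 65.3 CPM became 44.4 and 55.8 CPM (log2 change -0.42 with SE 0.11, adjusted p = 0.00988 by edgeR, DESeq2 0.6).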
